A study of Mus musculus with 24 samples.

Results

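The cytochrome P450 genes of families 1 to 4 were followed in the liver of male BALB/c mice fed phloridzin, a glucoside of apple that blocks sodium-coupled glucose transport. Genes were taken where a probe set of the array carried a single symbol made of Cyp, a family number of 1 to 4, a letter and a number. This gave 54 genes on 67 of 45101 probe sets, and the probe set with the highest mean over the 24 arrays stood for its gene. Of these genes, 47 passed the filter on low signal and were tested among 13118 genes. The study fed mice that were 6 weeks old at the start an AIN-93G diet (a purified rodent diet) for 14 days, with 3 mice to a cage. The diets held 0% phloridzin (control), 0.1%, 0.5% or 1% phloridzin, and 6 arrays of liver RNA carry the label of each. Strain, sex, age, base diet and feeding time are the same in all 4 groups. Hepatocyte transcripts were bright in every sample, with albumin (Alb) at a log2 signal of 13.41 to 13.59.

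P450 enzymes are heme proteins of the endoplasmic reticulum that insert an oxygen atom into lipids, steroids, drugs and plant compounds. Those of families 1 to 3 are known mainly for foreign compounds and steroids, those of family 4 for the end-hydroxylation of fatty acids and leukotrienes. In hepatocytes, textbook regulators are the aryl hydrocarbon receptor (AhR) for Cyp1a genes and the constitutive androstane receptor (CAR) for Cyp2b10. Others are the pregnane X receptor (PXR) for Cyp3a genes and PPARA for Cyp4a genes. Several mouse forms differ between the sexes, among them Cyp2d9 (higher in males) and Cyp2b9, Cyp2b13 and Cyp3a44 (higher in females).

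The labels describe RNA of single mice, but several arrays held the same RNA. Of 276 pairs of arrays, 13 differed with an SD of 0.0436 to 0.0577 log2 over 1463 bright genes. A further 8 pairs, joined because their most variable genes matched, had SDs of 0.108 to 0.137, against at least 0.164 in the other 255 pairs. Arrays of 1 RNA were averaged. Averaging left 4 RNA samples of control liver: a joint one of replicates 1 and 3, a joint one of 2 and 4, and the single replicates 5 and 6. The 0.1% diet had 3, each a single replicate (2, 4 and 5). The 0.5% diet had 2, the larger from replicates 1, 2, 3 and 6 and the smaller from 4 and 5. The 1% diet also had 2, one joining replicates 2, 3, 5 and 6 and one from replicate 4 alone. The RNA of 0.1% replicates 1, 3 and 6 and 1% replicate 1 was also the same. It carries the labels of 2 diets and was left out of every comparison. The second joining rested on a definition chosen among 24 after the data were seen, of which 3 gave this grouping. At 0.5% and at 1% it decides whether there are 2 or 3 samples. Signals below are log2 intensities after quantile normalization with a floor of 8, which is 3 on the log2 scale, p-values come from limma over all genes tested, and few arrays limit their precision. Signals of different genes come from different probes and are not compared with each other.

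The promoters of 4 members are shown because these genes had the smallest p at 0.5% (Cyp1a2), at 1% (Cyp2b9) and for the slope on dose (Cyp2d9), or an unadjusted p under 0.05 at all doses (Cyp2b10). They are the 250 bases before the annotated start in RefSeq, build GRCm38.p6, which holds promoter entries for 43 of the 54 genes. Capitals mark matches, on either strand, of GCGTG (the core bound by AhR), AGGTCA (a half-site of nuclear receptors), TATAAA (the TATA box) and TTATGTAA (a site of the clock output factors DBP, TEF and HLF).
Cyp1a2: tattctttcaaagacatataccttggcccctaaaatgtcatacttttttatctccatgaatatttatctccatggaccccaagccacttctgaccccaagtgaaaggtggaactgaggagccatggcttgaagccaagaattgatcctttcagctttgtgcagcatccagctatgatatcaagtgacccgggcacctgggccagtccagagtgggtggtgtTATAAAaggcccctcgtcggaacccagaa
Cyp2b9: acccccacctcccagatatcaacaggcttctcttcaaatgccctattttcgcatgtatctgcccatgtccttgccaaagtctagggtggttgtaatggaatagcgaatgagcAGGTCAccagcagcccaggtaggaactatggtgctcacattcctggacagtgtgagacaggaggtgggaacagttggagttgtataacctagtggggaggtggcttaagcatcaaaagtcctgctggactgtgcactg
Cyp2b10: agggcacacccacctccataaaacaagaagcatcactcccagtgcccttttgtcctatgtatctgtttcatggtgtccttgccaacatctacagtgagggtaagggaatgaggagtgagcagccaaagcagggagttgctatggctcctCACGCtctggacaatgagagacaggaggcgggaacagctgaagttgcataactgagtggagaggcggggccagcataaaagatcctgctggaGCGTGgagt
Cyp2d9: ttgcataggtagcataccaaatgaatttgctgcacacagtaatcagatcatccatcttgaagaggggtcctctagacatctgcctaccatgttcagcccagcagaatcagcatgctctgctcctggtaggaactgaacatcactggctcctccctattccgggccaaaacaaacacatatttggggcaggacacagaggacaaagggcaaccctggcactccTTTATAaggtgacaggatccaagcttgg
Cyp1a2 lies at chr9:57683656-57683905 (minus strand), Cyp2b9 at chr7:26173159-26173408 (plus), Cyp2b10 at chr7:25897408-25897657 (plus) and Cyp2d9 at chr15:82452127-82452376 (plus), each region being the stretch shown. Cyp1a2 and Cyp2d9 hold 1 match of TATAAA each, which begins 29 and 28 bases before the start and in Cyp2d9 lies on the other strand. Cyp2b9 holds 1 AGGTCA and Cyp2b10 holds 2 GCGTG (1 on each strand), while neither holds the letters TATAAA. Of the 43 members with an entry, 10 held GCGTG, 11 AGGTCA, 17 TATAAA and 0 TTATGTAA. Over all 32851 promoters the shares were 28.2%, 14%, 12.4% and 0.819%. A match describes the letters of this window and is no evidence of binding.

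No P450 gene passed the test at any dose: with limma and Benjamini-Hochberg adjustment over all genes, 0 of 47 had an adjusted p under 0.05 at 0.1%, 0.5% or 1%. The smallest adjusted p of a member was 0.488, 0.665 and 0.708 at these doses. Few genes of any kind passed, 0.0229% of all genes tested at 0.1%, 0.00762% at 0.5% and 0.0152% at 1%. The 3 comparisons share the control samples, so their values are given side by side and do not count as separate evidence. In bulk liver, fewer cells of a type and less RNA per cell cannot be told apart.

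The median log2 difference of the 47 members was below 0 at each dose. It was -0.07 at 0.1%, -0.11 at 0.5% and -0.10 at 1%, against 0.0032, 0.0071 and -0.024 over all genes. At 0.1%, 32 of 47 members were lower than control, at 0.5% 28 and at 1% 36, and the lower share of all genes was 49.4%, 48.9% and 54%. The mean over the 47 members spanned -0.06 to 0.06 among the control samples around their own mean. It was -0.04, -0.06 and -0.08 in the 0.1% samples, -0.22 and 0.01 at 0.5%, and -0.16 and -0.17 at 1%. Both 1% samples, 1 of the 2 samples at 0.5% and 1 of the 3 at 0.1% (replicate 5, at -0.0763 against a lowest control value of -0.0606) lay below every control sample.

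**Figure D1:**
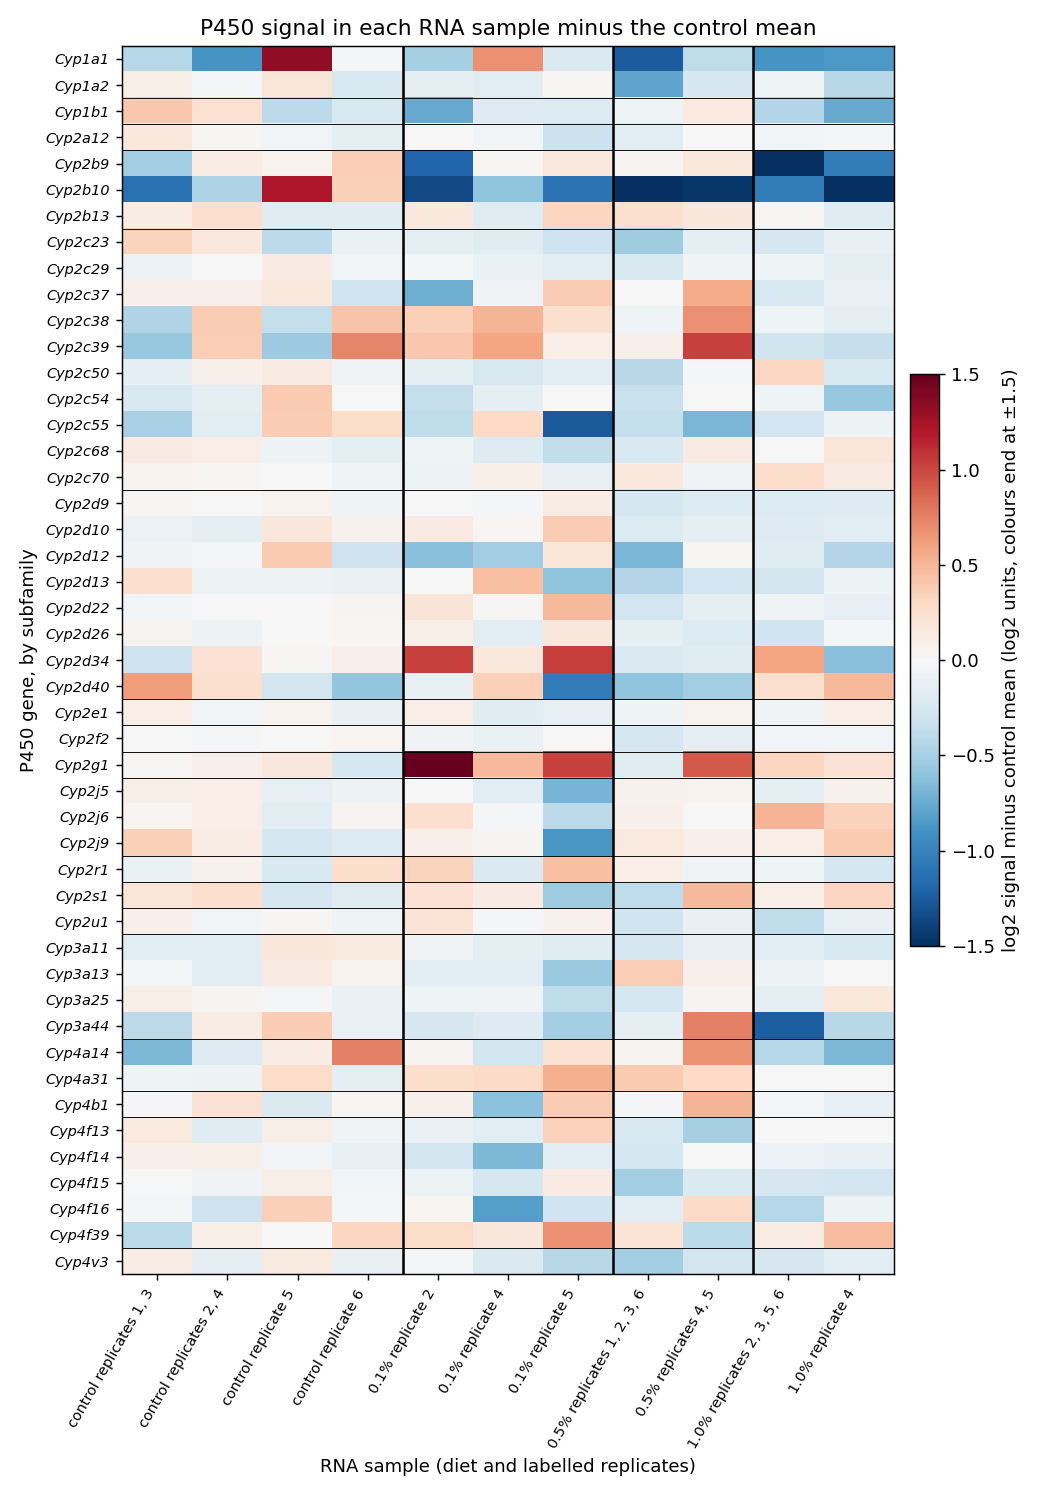
Log2 signal of each of the 47 tested P450 genes (rows, by subfamily) in each of the 11 RNA samples (columns, control to 1%), minus the mean of the 4 control samples in log2 units. Cyp2b10 is the row with the largest spread, and Cyp2d9, Cyp4f15 and Cyp4v3 are lower than the control mean in all 4 samples at 0.5% and 1%.

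At 0.1%, 3 members had an unadjusted p under 0.05 with a lower signal (3.99% of all genes) and 2 with a higher one (4.48% of all genes). All 3 samples lay below the control range for 2 members (3.74% of all genes) and above it for 1 (4.13%). Both shares are near those of all genes. At 0.5%, 7 members were lower at an unadjusted p under 0.05 (14.9% of members, 2.71% of all genes) and 0 were higher (2.52%). Both samples lay below the control range for 12 members (25.5%, against 8.69% of all genes) and above it for 1 (2.13%, against 9.16%). At 1%, 4 members were lower (8.51%, against 4.02%) and 1 was higher (2.13%, against 2.48%). There 11 members lay wholly below control (23.4%, against 12.4%) and 3 wholly above (6.38%, against 8.23%).

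The 0.5% values moved with how arrays were joined and with the RNA sample kept. With replicates 1 and 6 kept apart from 2 and 3 (12 samples), 13 members were lower at an unadjusted p under 0.05, and with no such joining (13 samples) 14, against 4.07% and 4.3% of all genes. Where 1 of the 2 samples of a dose is left out, the lone sample is assumed to vary like the other groups. Without the RNA of replicates 1, 2, 3 and 6 the median was -0.0096, with 1 member lower (3.16% of all genes) and 3 higher (2.01% of all genes). Without replicates 4 and 5 it was -0.21, with 8 members lower (1.94% of all genes) and 0 higher (1.48%). In each of these settings 0 members had an adjusted p under 0.05. At 1%, 9 members were lower with no such joining, where 7.1% of all genes were. Of the 7 members, without the 0.5% RNA of replicates 1, 2, 3 and 6, Cyp1a2 differed by -0.25, Cyp4v3 by -0.28, Cyp4f15 by -0.22 and Cyp2d9 by -0.20. Cyp2f2 then differed by -0.14, Cyp4f13 by -0.49 and Cyp2b10 by -1.46. Both 0.5% samples of each of the 7 lay below the control range, so leaving 1 out could not change these signs. At 1%, without the RNA of replicates 2, 3, 5 and 6, Cyp3a44 differed by -0.41, Cyp2d9 by -0.19, Cyp2j6 by 0.35, Cyp2b9 by -1.05 and Cyp2b10 by -1.86, and without replicate 4 Cyp2b10 differed by -1.05. At 0.1%, where 2 samples remained, Cyp2g1 kept an unadjusted limma p under 0.05 without any 1 of the 3 samples (0.76 to 1.33). Cyp2d34 did not without replicate 2 (0.60) or 5 (0.59), nor Cyp3a13 without replicate 5 (-0.16), nor Cyp4f14 without replicate 4.

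**Figure D2:**
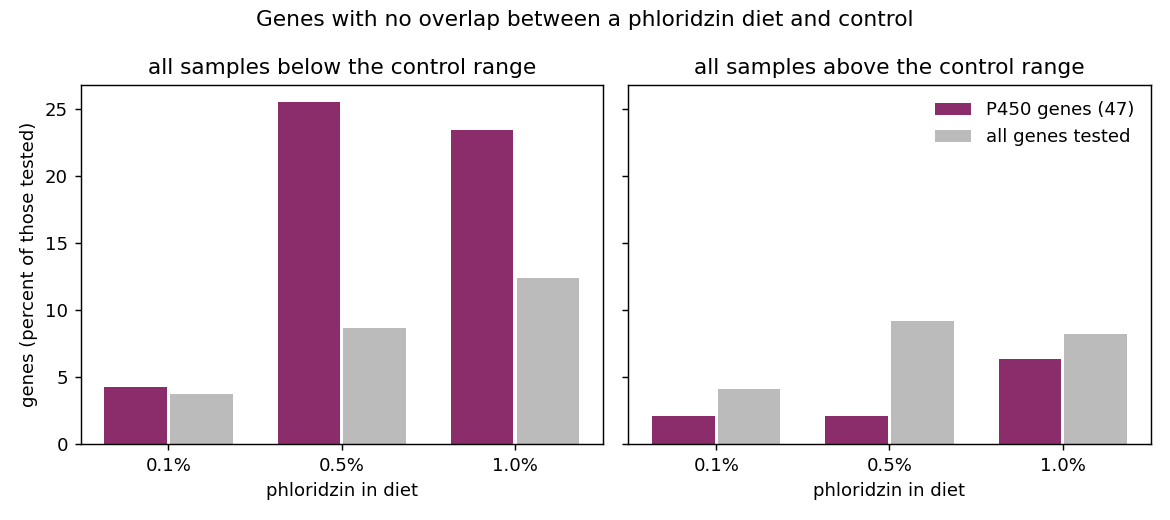
Percent of genes whose RNA samples at a phloridzin dose (x axis) all lay below (left) or above (right) the 4 control samples, for the 47 tested P450 genes and for all 13118 genes tested. Below the control range, P450 genes stood at 25.5% at 0.5% and 23.4% at 1%, against 8.69% and 12.4% of all genes.

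Bright members carried the 0.5% count. Of the 20 members with a mean log2 signal above 9, 9 lay wholly below control at 0.5% (45%, against 14.6% of 1463 bright genes) and 7 at 1% (35%, against 18.9%). Their median difference was -0.17 at 0.5%, while that of the 27 dimmer members was 0.049. At 1% the order was the other way, with -0.104 for bright and -0.16 for dimmer members.

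In the Cyp1a pair, neighbours on chromosome 9, the AhR targets Cyp1a1 and Cyp1a2, both members were lower than control at each dose on average. Cyp1a2, the main liver form and the enzyme that clears caffeine, had 10.50 and 11.04 in 0.5% liver (replicates 1, 2, 3 and 6, then 4 and 5), against 11.38, 11.27, 11.48 and 11.05 in control liver. Both 0.5% samples were below every control sample, the second barely so. The difference was -0.52 ± 0.16 (log2, SE; limma adjusted p = 0.665). At 1% Cyp1a2 had 11.23 and 10.88, and at 0.1% 11.15, 11.12 and 11.31, which overlapped control at both doses. Cyp1a1, the inducible form, had 4.03 and 4.05 in 1% liver, against 4.49, 4.03, 6.24 and 4.89 in control liver. Its control samples spread with an SD of 0.95, and the difference of -0.88 ± 0.50 did not pass (limma adjusted p = 0.772, for the slope adjusted p = 0.54). Cyp1b1, known mostly from tissues other than liver, was dim at 3.00 to 4.16, and its 2 other probe sets did not pass the filter.

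The Cyp2b genes, which lie close together on chromosome 7 and include the CAR target Cyp2b10, held the largest differences at 1%. Cyp2b10 had 3.81 and 3.00 in 1% liver, against 3.75, 4.40, 6.07 and 5.22 in control liver. The other phloridzin samples lay at 3.51, 4.26 and 3.75 at 0.1% and at 3.23 and 3.40 at 0.5%. Only at 0.5% did no sample overlap control, whose samples themselves spread with an SD of 1.01. The differences were -1.02 ± 0.44 at 0.1%, -1.54 ± 0.50 at 0.5% and -1.46 ± 0.50 at 1% (limma adjusted p = 0.57, adjusted p = 0.71 and adjusted p = 0.75). All 3 Cyp2b10 probe sets were lower at each dose, by 0.50 to 1.54 on the log2 scale. These signals lie near the floor of 3, and 2 of the 3 probe sets are of a kind that can bind related transcripts. At 0.1% the difference was -0.62 without control replicate 5, against -1.02 with it. With a floor of 16 it was -0.92 at 0.5% and -0.90 at 1%, neither at an unadjusted p under 0.05.

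Cyp2b9, a form higher in female mice, had 3.16 and 3.68 in 1% liver, against 4.20, 4.84, 4.78 and 5.09 in control liver. Neither 1% sample overlapped control, and the difference was -1.31 ± 0.37 (limma adjusted p = 0.71). With a floor of 16 the difference was -0.728. The 0.5% samples, at 4.76 and 4.89, and 2 of the 3 samples at 0.1% (3.54, 4.74 and 4.89) lay within the control range. Cyp2b13 had 3.20 and 3.00 in 1% liver, against 3.29, 3.44, 3.00 and 3.00 in control liver, with 4 of its 11 values at the floor. Cyp2b19 was at or near the floor and was not tested.

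The Cyp2c subfamily, whose products oxidise drugs, arachidonic acid and bile acids, was the largest with 11 genes, 10 of them tested. Its median difference was -0.15 at 0.1%, -0.10 at 0.5% and -0.14 at 1%, and 0 members had an unadjusted p under 0.05 at any dose. Cyp2c29, a main liver form, had 12.98 and 13.15 at 0.5% and 13.14 and 13.07 at 1%, against 13.12, 13.22, 13.33 and 13.17 in control liver. These overlapped control. Cyp2c70, which makes muricholic acids in the mouse, had 12.76 and 12.62 in 1% liver, against 12.54, 12.51, 12.49 and 12.44 in control liver. Both samples were above control, by 0.20 ± 0.09 on average (limma adjusted p = 0.770, for the slope adjusted p = 0.535). Its slope of 0.21 was -0.0661 with no scaling. Cyp2c38 and Cyp2c39, both on chromosome 19, spread among control samples with SDs of 0.47 and 0.65. Cyp2c55 had 3.70 to 5.26 at 0.1%, against 4.47 to 5.34 in control liver, and Cyp2c37 had 3.12 to 4.24 at 0.1%, against 3.56 to 4.01 in control liver.

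The 8 Cyp2d genes, all tested and all within 9 consecutive protein-coding genes of chromosome 15, were lower than control at 0.5% in all 8 cases, and 7 of 8 were lower at 1%. The median was 0.029 at 0.1%, -0.22 at 0.5% and -0.17 at 1%. Cyp2d9, a steroid hydroxylase higher in male mice, had 12.67 and 12.72 at 0.5% and 12.72 and 12.73 at 1%, against 12.94, 12.91, 12.97 and 12.86 in control liver. All 4 of these samples lay below control, by 0.23 ± 0.08 and 0.20 ± 0.08 on average (limma adjusted p = 0.73 and adjusted p = 0.76). With arrays scaled to one 75th percentile they were -0.159 and -0.137, neither at an unadjusted p under 0.05, and with no scaling -0.359 and -0.448. In contrast, Cyp2d9 had 12.92, 12.91 and 13.03 at 0.1%, within or above the control range. Its control SD of 0.05 was among the 6 smallest of the tested members, and its slope of -0.25 ± 0.08 per 1% of phloridzin had the smallest slope p of them (limma adjusted p = 0.46). Cyp2d10 and Cyp2d22 also lay wholly below control at 0.5% and 1%, and Cyp2d13 and Cyp2d26 at 0.5%. The second probe set of Cyp2d13 differed by 0.061 at 0.5%, against -0.365 for the one used, so its probe sets disagree. Cyp2d genes resemble each other in sequence, and signal from one in the probe set of another cannot be told apart here. Cyp2d34, dim at 3.12 to 4.78, was higher at 0.1% by 0.74 ± 0.32 (limma adjusted p = 0.56).

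Among the single genes of family 2, Cyp2e1, which oxidises ethanol and acetone in pericentral hepatocytes, had 13.62 and 13.74 at 0.5% and 13.63 and 13.78 at 1%, against 13.78, 13.64, 13.74 and 13.58 in control liver. The samples overlapped at each dose, with differences of -0.07 ± 0.09, -0.01 ± 0.10 and 0.02 ± 0.10 at 0.1%, 0.5% and 1%. Quantile normalization sets values by rank, and 13.7829 recurred in control replicates 1 and 3, 0.1% replicate 2 and 1% replicate 4. This limits how far a change in so bright a signal could show. Cyp2f2, which oxidises naphthalene, had 12.65 and 12.76 at 0.5%, against 12.91, 12.88, 12.89 and 12.93 in control liver. Both lay below control, by 0.19 ± 0.08 on average (limma adjusted p = 0.87), and its control SD of 0.02 was the smallest of the tested members. At 1% Cyp2f2 had 12.861 and 12.856, also just below control, with a difference of -0.04 ± 0.08 (limma adjusted p = 0.943). Cyp2a12, a steroid hydroxylase, and Cyp2r1, which hydroxylates vitamin D, overlapped control at each dose.

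Cyp2g1, known from the olfactory lining, had 6.15, 5.01 and 5.56 at 0.1%, against 4.55, 4.60, 4.70 and 4.26 in control liver. All 3 samples lay above control, by 1.04 ± 0.29 on average (limma adjusted p = 0.49). At 0.5% it had 4.35 and 5.45, and at 1% 4.86 and 4.75. Both 1% samples also lay above control. Cyp2u1, a fatty acid hydroxylase, lay wholly below control at 0.5% (6.85 and 7.03) and 1% (6.76 and 7.02), against 7.22, 7.10, 7.18 and 7.07 in control liver. Its second probe set differed by -0.57 at 0.5% but by 0.010 at 1%, and with the mean of both the slope, -0.233, was no longer at an unadjusted p under 0.05.

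The Cyp2j genes, which epoxidise arachidonic acid, had 3 tested members of 5. Cyp2j6 had 7.64 and 7.48 in 1% liver, against 7.16, 7.23, 6.97 and 7.17 in control liver. Both samples lay above control, by 0.43 ± 0.17 on average (limma adjusted p = 0.76), but its second probe set differed by 0.031 only. The difference was 0.229 with the mean of both probe sets, 0.183 with arrays scaled to one median and 0.0229 with no scaling. Cyp2j5, the form of kidney and liver, had 11.65, 11.495 and 10.96 at 0.1%, against 11.75, 11.76, 11.54 and 11.58 in control liver (limma adjusted p = 0.594). Its second probe set differed by -0.45 at 0.1% and 0.34 at 1%, against -0.29 and -0.04 for the one used.

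In the Cyp3a subfamily, targets of PXR, Cyp3a11, the main drug-oxidising form, had 13.02 and 12.96 at 1%, against 13.03, 13.04, 13.36 and 13.35 in control liver. Both 1% samples lay just below control, by 0.21 ± 0.11 on average (limma adjusted p = 0.772). Cyp3a44, higher in females, had 4.30 and 5.12 in 1% liver, against 5.14, 5.64, 5.91 and 5.44 in control liver, a difference of -0.82 ± 0.31 (limma adjusted p = 0.75). The second sample lay 0.02 below the lowest control sample. At 0.5% Cyp3a44 had 5.38 and 6.29. Cyp3a13, a form found outside the liver too, had 7.81, 7.81 and 7.41 at 0.1%, against 7.95, 7.81, 8.11 and 8.02 in control liver (limma adjusted p = 0.59). Cyp3a25 overlapped control at each dose, and Cyp3a16 was at the floor in all 11 samples.

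In family 4, the fatty acid and leukotriene hydroxylases, the members lower at an unadjusted p under 0.05 at 0.5% were Cyp4f13, Cyp4f15 and Cyp4v3. Cyp4v3, which hydroxylates fatty acids, had 11.62 and 11.84 at 0.5%, against 12.23, 11.98, 12.27 and 12.01 in control liver. Both were below control, by 0.40 ± 0.12 on average (limma adjusted p = 0.68), and its second probe set was lower by 0.30. At 1% Cyp4v3 had 11.87 and 11.97, also below control, with a difference of -0.20 ± 0.12 (limma adjusted p = 0.783). Cyp4f15, a leukotriene hydroxylase, had 9.005 and 9.31 at 0.5% and 9.28 and 9.25 at 1%, against 9.54, 9.48, 9.61 and 9.48 in control liver. All 4 were below control, by 0.37 ± 0.13 and 0.27 ± 0.13 on average (limma adjusted p = 0.716 and adjusted p = 0.770). Cyp4f13 had 7.71 and 7.47 at 0.5%, against 8.11, 7.77, 8.05 and 7.91 in control liver (limma adjusted p = 0.92). Cyp4f14, also a leukotriene hydroxylase, had 9.99, 9.58 and 10.10 at 0.1%, against 10.33, 10.35, 10.22 and 10.14 in control liver. All 3 were below control, by 0.37 ± 0.12 (limma adjusted p = 0.49). Without 0.1% replicate 4 the difference was -0.217. The PPARA target Cyp4a14 had 3.25 and 3.00 at 1%, against 3.00, 3.49, 3.79 and 4.44 in control liver, which overlapped. Cyp4a31 lay above control at 0.5%, the second sample barely so, with 5.46 and 5.36 against 5.01, 5.00, 5.35 and 4.92. The difference was 0.34 ± 0.20 (limma adjusted p = 0.976). Its other probe set was at the floor in every group and did not pass the filter. The 7 genes at or near the floor and not tested were Cyp2b19, Cyp2c65, Cyp2j11, Cyp2j13, Cyp3a16, Cyp4f18 and Cyp4x1.

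**Figure D3:**
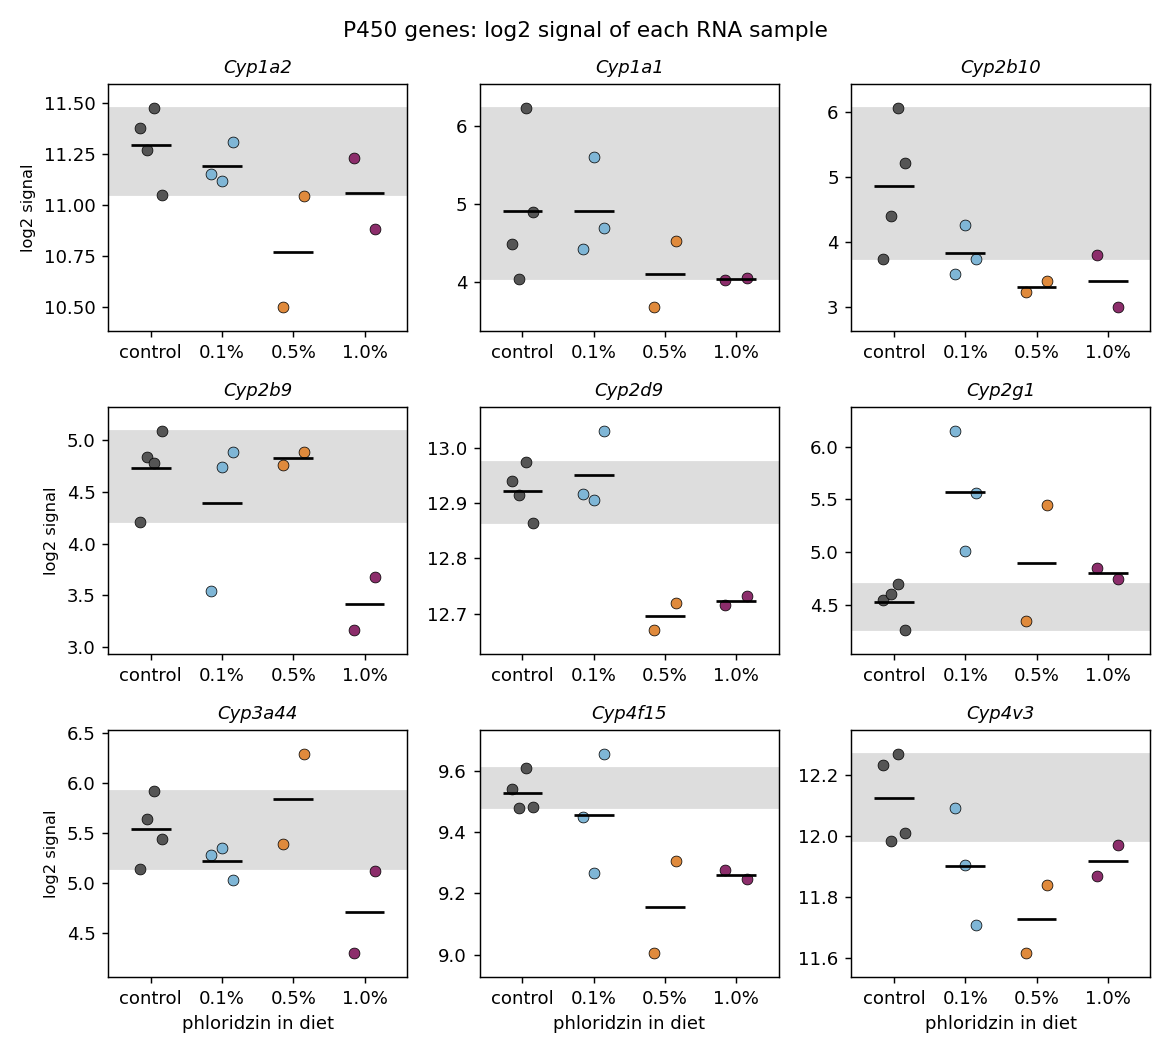
Log2 signal of 9 P450 genes in each RNA sample (points) by diet, with the group mean (line) and the control range (grey band). Cyp2d9, Cyp4f15 and Cyp4v3 lie below the control range at 0.5% and 1%, Cyp1a2 and Cyp2b10 only at 0.5%, and Cyp2b9 and Cyp3a44 only at 1%. Cyp2g1 lies above it at 0.1% and 1%.

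The doses were also compared with each other. With limma, 0 of 47 members had an adjusted p under 0.05 for 0.5% against 0.1%, 1% against 0.1% or 1% against 0.5% (0%, 0.0152% and 0% of all genes). The slope on phloridzin content called 0 members (0% of all genes), with 7 lower (5.43%) and 2 higher (3.4%) at an unadjusted p under 0.05. The F-test over the 4 diets called 0 members (0.0152% of all genes), with 11 at an unadjusted p under 0.05 (23.4% of members, 9.25% of all genes).

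Other genes of P450 biology were read from lists written with earlier results of these data known. Among 16 sensors and regulators, 0 had an adjusted p under 0.05 at any dose with limma. At 0.5%, 2 were higher and 2 lower at an unadjusted p under 0.05, against 2.52% and 2.71% of all genes. Nr0b2, which codes for the repressor SHP, was lower by 0.90 ± 0.21 at both 0.5% and 1% (limma adjusted p = 0.415 and adjusted p = 0.62). Nr0b2 had 9.50 and 8.77 at 0.5% and 8.93 and 9.34 at 1%, against 10.09, 9.85, 10.32 and 9.91 in control liver, with no overlap. Next in order of p at 0.5% were Cebpa, lower by 0.56 ± 0.17, and Onecut1, higher by 1.16 ± 0.41 (limma adjusted p = 0.679 and adjusted p = 0.742). Of 7 tested genes for electron donors and heme supply, 0 had an unadjusted p under 0.05 at any dose. Of 8 listed AhR targets other than P450 genes, 3 were tested, and 1 of these (Nfe2l2) is also among the regulators. The same gene, Tiparp, was higher at 0.5% and 1% at that level, against 2.52% and 2.48% of all genes. Its differences were 0.71 ± 0.22 and 0.49 ± 0.22 (limma adjusted p = 0.679 and adjusted p = 0.761). Of 12 CAR and PXR targets other than P450 genes, 10 were lower at 1%, 1 of them (Abcc4, a drug exporter) at an unadjusted p under 0.05 (-0.85 ± 0.32, adjusted p = 0.75). Their median was -0.22 at 1%. The shares of all genes were 54% lower and 4.02% lower at an unadjusted p under 0.05.

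Of 13 PPARA targets other than P450 genes, 12 were lower at 1%, 4 of them at an unadjusted p under 0.05, with a median of -0.29. Of all genes, 54% were lower at 1%, and 4.02% were lower at an unadjusted p under 0.05. Acaa1b, a peroxisomal thiolase, had 12.24 and 12.55 at 1%, against 12.75, 12.73, 12.73 and 13.01 in control liver (limma adjusted p = 0.67). Of 4 tested female-biased genes other than P450 genes, 3 were lower at 1%, with scores of -0.42 and -0.44 in the 2 samples, against -0.21 to 0.24 in control samples. Their part in the values of Cyp2b9 and Cyp3a44 was not tested. Of 7 male-biased genes, 6 were lower at 0.1% with a median of -0.29, where 49.4% of all genes were lower. At 0.5%, 4 were higher and 3 lower, where 48.9% of all genes were lower.

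The 0.5% RNA of replicates 1, 2, 3 and 6, which had the lower mean over the P450 genes at that dose, stood apart in other gene groups. The mean of 16 acute phase genes lay 1.504 above the control mean in that sample and 0.56 above it in replicates 4 and 5, against -0.09 to 0.04 in control samples. At 1% the acute phase scores were 0.57 and -0.04. Saa2, an acute phase apolipoprotein, had 13.004 and 10.15 at 0.5%, against 7.82, 7.53, 8.53 and 7.73 in control liver. The clock list scored -0.87 in that sample and 0.20 in the other 0.5% sample, against -0.17 to 0.19 in control samples. Nr1d1, the clock repressor REV-ERB alpha, had 3.56 and 5.51 there, against 6.62, 6.69, 6.65 and 6.46. The mean of the 47 P450 genes was -0.22 in the first of these samples and 0.01 in the second. The part of these signals in the P450 values was not tested.

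**Figure D4:**
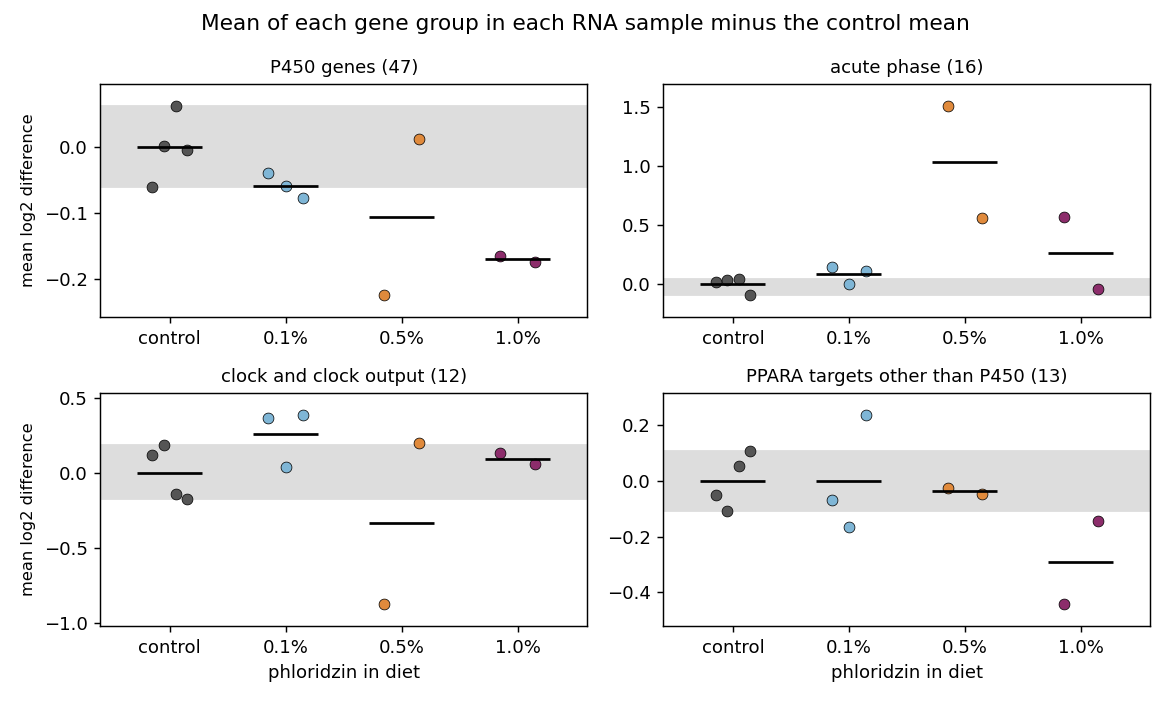
Mean log2 signal of the P450 genes, acute phase genes, clock genes and PPARA targets in each RNA sample (points) by diet, minus the control mean, with the group mean (line) and the control range (grey band). The 0.5% sample at -0.22 for P450 genes is the one at 1.504 for acute phase genes and -0.87 for clock genes.

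Cell type markers were set beside these results. Hepatocyte markers scored -0.18, 0.06 and -0.28 at 0.1%, -0.0497 and -0.08 at 0.5% and -0.12 and 0.04 at 1%. Control samples spanned -0.0397 to 0.0476. Both 0.5% samples, 0.1% replicates 2 and 5 and the joint 1% sample lay below that range, and 0.1% replicate 4 above it. Pericentral genes other than P450 genes scored -0.10 to -0.0152 at 0.1%, against -0.08 to 0.0746 in control samples. At 0.5% (-0.12 and -0.125) and 1% (-0.13 and -0.18) the pericentral scores of all 4 samples lay below the control range. Periportal genes scored -0.0847 to 0.18, against -0.07 to 0.05. In 0.1% replicate 4, markers of Kupffer cells scored -0.46 and of sinusoidal endothelium -0.47, against -0.06 to 0.12 and -0.05 to 0.05 in control samples, and the actin 3' minus 5' signal, a sign of RNA quality, was 2.32, against 1.31 to 1.54. That signal was 1.78 in 0.5% replicates 4 and 5. The matching Gapdh signal was -0.182 and -0.176 in the 0.5% samples, against -0.373 to -0.279 in control samples. At 0.1% it was -0.268, -0.053 and -0.262 (replicates 2, 4 and 5), so all samples at 0.1% and 0.5% lay above control. At 1% it was -0.307 and -0.348, within the control range. Neutrophil markers scored 0.88 in 0.5% replicates 4 and 5, against -0.32 to 0.22. Scores of the cholangiocyte list, with 3 genes tested, were 0.80, 0.69 and 0.03 at 0.1%, 0.77 and 0.70 at 0.5% and 0.05 and 0.62 at 1%, against -0.25 to 0.21 in control samples. Stellate cell markers scored -0.21 to 0.17, lymphocyte markers -0.10 to 0.40 and erythroid markers -0.47 to 0.29 at phloridzin doses, against -0.26 to 0.14, -0.25 to 0.24 and -0.32 to 0.20 in control samples. The part of these markers and quality signs in the P450 values was not tested.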

How the data were processed

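Liver RNA was measured on 24 one-colour Affymetrix arrays, and the values the authors deposited are linear probe set intensities whose array medians span 9.49 to 18.0. Per the labels' protocols, RNA was copied with a T7-(dT)24 primer and the One-Cycle kit. No source used here states how the deposited intensities were summarised or scaled. Intensities were quantile normalized and floored at 8, and log2 values were computed from the deposited intensities. A filter dropped the dimmest 40% of probe sets (27022 kept), probe sets with several genes were set aside, and 1 probe set, the brightest, stood for each gene. Probe sets were named from the platform annotation.

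Arrays with a pairwise SD under 0.08 over 1463 bright genes were averaged as 1 RNA. Sets were also joined where the median absolute difference over their 200 most variable genes was under 1.2 times that of the remaining genes above log2 7. That distance was adopted because it gives the grouping of an earlier analysis of these data. Of 24 definitions compared, 3 gave this grouping, 12 put the 0.5% join over the limit and 9 joined other sets too. Over these definitions the ratio of the 1% join ran between 0.365 and 1.61, against the limit of 1.2.

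The main test was limma 3.58.1 (R 4.3.3) with a trend over all 11 RNA samples, Benjamini-Hochberg adjustment over 13118 genes and a threshold of 0.05. It covered each dose against control, doses against each other, the slope and an F-test. Genes named in the text are up to 8 members per dose and for the slope in order of p among those under an unadjusted 0.05, the brightest member of each subfamily, a panel of inducible or main liver forms, the 6 members with the largest and the 6 with the smallest control SD, members with several probe sets, and up to 3 genes of each list in order of p. Others named beside a range or the floor were chosen after their values were seen. The p-values measure only the spread between these RNA samples. The members and the 19 gene lists were chosen with earlier results of these data known. The test was also run on simulated data with 200 changed genes.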

Additional observations from a re-analysis of the deposited data

Results flagged for a closer look

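In 2 P450 genes 1 control sample stood far from the other 3, and chance alone sets about 1 in 20 groups apart in this way. Every P450 gene whose control samples differed was screened, so a few such genes come up at that rate alone. For Cyp2b19 the gap of control replicate 6 (3.14) to the other control samples, all at the floor of 3.00, was 1 times the group's range. The floor fixes this value wherever only 1 sample lies above it, so the rate does not apply to Cyp2b19. For Cyp2d13 the control RNA of replicates 1 and 3 (9.56) lay above the others (9.21 to 9.24), with a gap of 0.914 of the range. In the RNA that carries the labels of 2 diets, which no comparison used, 13 of the 47 tested P450 genes lay above the control range and 16 below it. Over all genes tested these shares were 34% above and 28% below.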

How the results depend on the processing

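No P450 gene had an adjusted p under 0.05 in any setting that counted each RNA once. With all 24 arrays as separate samples, which counts arrays of one RNA as replicates, 16, 9 and 1 members were called at 0.1%, 0.5% and 1% (34%, 19.1% and 2.13% of members, against 20.1%, 3.42% and 3.06% of all genes). The F-test called 27 (57.4%, against 35.9%), and the 3 comparisons between doses made 36 calls in all. These were 17, 11 and 8 for 0.5% against 0.1%, 1% against 0.1% and 1% against 0.5%, where 30.3%, 16.1% and 7.42% of all genes were called. With the replicate block added the counts were 16, 7, 1, 28 and 36, with 20.8%, 3.3%, 2.65% and 35.9% of all genes at the doses and by the F-test. Replicate numbers do not pair the mice: over 36 same-numbered pairs the correlation of deviations ran between -0.154 and 0.418, with a median of -0.0044, and 4 arrays correlated best with their own number. The median difference of members at 0.1%, 0.5% and 1% was -0.168, -0.177 and -0.261 with arrays scaled to one median, and -0.252, -0.279 and -0.421 with no scaling. The median of all genes was then -0.0783, -0.0926 and -0.197 with one median and -0.16, -0.194 and -0.353 with no scaling, against 0.0032, 0.0071 and -0.024 with quantile normalization. The 1% median was -0.16 with a floor of 4. The 0.5% median was -0.0474 with no filter, -0.166 without the lowest 60% of probe sets, and -0.161 with 12 or with 13 RNA samples, the 12-sample grouping being added after the data were seen. Leaving out 1 RNA sample moved it between -0.211 and -0.00962. Members lower at an unadjusted p under 0.05 numbered 6, 9 and 14 with one median (8.42%, 6.91% and 18.3% of all genes) and 4, 10 and 16 with no scaling (4.49%, 5.28% and 18.6%). At 1% they were 7 with one 75th percentile (6.58%), 6 of 54 with no filter (3.75%) and 2 with the RNA of 2 labels kept (2.49%). With no trend they were 1 at 0.1% (3.75%) and 4 at 0.5% (2.56%). Over 25 named results and 28 settings, 1 of 685 values changed sign, the slope of Cyp2c70 (-0.0661). These results were named for an unadjusted p under 0.05 in the main fit, and the settings mostly reuse its samples. Unchanged signs are therefore no separate evidence. The cause of the shifts between settings was not tested. Signals near the floor, as for Cyp2b10, limit what can be measured.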

Other observations

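P450 probe sets that match several genes, or whose symbol does not end in a number, lie outside the rule and entered no comparison. Cyp4a12a, a symbol that ends in a letter, had 11.20, 11.07 and 11.11 at 0.1% and 11.11 and 10.61 at 0.5%. At 1% it had 11.08 and 11.12, against 11.22, 11.07, 11.30 and 11.26 in control liver. Cyp4f41-ps was at or near the floor. The probe set shared by Cyp2a5 and Cyp2a4, coumarin and steroid hydroxylases, had 8.52 and 10.40 at 0.5%, against 9.89 to 10.25 in control liver. The low value belongs to the RNA of 0.5% replicates 1, 2, 3 and 6. The probe set shared by Cyp4a31 and Cyp4a10, fatty acid hydroxylases, had 7.60 and 7.39 at 0.5%, against 6.42 to 7.69 in control liver, and that of Cyp3a41b and Cyp3a41a had 4.57 and 5.04 at 1%, against 4.54 to 5.38.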
